A study of Homo sapiens with 6 samples.

Results

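Immediate-early response genes were measured in 6 RNA-seq libraries of HEK293T cells, a human embryonic kidney line that carries the SV40 large T antigen. The set held 10 genes of the 23204 gene symbols in the tables, namely the transcription factors EGR1, EGR2, EGR3, FOS, FOSB, JUN and JUNB, the response genes IER2 and IER3, and the phosphatase gene DUSP1. These genes were chosen by measured values of these same libraries, because members of the group stood high in the plasmid libraries and low in the siRNA libraries and because some were lower with 1 mutant. Differences along those lines are therefore given as a description of the libraries and were not tested. Where a symbol had several rows, 1 per RefSeq transcript, the row with the highest mean level was used.

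The study asked how mutations of DDX3X, a DEAD-box RNA helicase mutated in medulloblastoma, affect translation and stress granules, which are cytosolic bodies of mRNA and protein. Beside assays of RNA binding, ribosome positions and protein synthesis, it used RNA-seq to see whether DDX3X changes RNA levels. In the siRNA arm, HEK293T cells were treated with a control siRNA or with DDX3X siRNA for 48 h. The plasmid arm consisted of HEK293T cells transfected for 32 h with 5 µg of plasmid, which encoded either GFP, GFP-DDX3X wild type (WT) or 1 of the missense mutants GFP-DDX3X T275M and GFP-DDX3X G302V, after which a flow cytometry sort kept the GFP+ population. For these data the study's text names G302V and a mutant other than T275M, so which mutant the library labelled T275M holds rests on its label. No sorting was described for the siRNA cells, so the kind of nucleic acid, its time in the cells and the passage through a sorter cannot be told apart between the arms. Transfection was transient, no replicate was made of any of the 6 libraries, and the labels name no batch or date.

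The labels call the cell type neuronal. Of 9 neuronal markers, 6 reached 1 RPKM, a read count scaled to the length of the transcript in kilobases and to a library of 1000000 reads, in at least 1 library, led by the neurofilament gene NEFM at 514 to 683 RPKM, whereas MAP2, the microtubule-associated protein of dendrites, stayed at or under 0.086 RPKM. The summed neuronal markers were at 638 to 835 RPKM in the plasmid libraries and 648 to 756 RPKM in the siRNA libraries, and 7 kidney and epithelial markers at 334 to 354 and 295 to 335 RPKM. Markers of blood, endothelium and liver stayed under 1 RPKM in all libraries, with CD3E at 0 in each, and of 4 fibroblast markers COL1A1 alone reached it, at 2.32 to 5.77 RPKM. The summed fibroblast markers were at 5.35 to 6.19 RPKM in the plasmid libraries and 2.69 to 5.56 RPKM in the siRNA libraries, and their part in the results was not tested. Recovered depth was about 43720000 to 67520000 reads in 5 libraries and 180870000 reads in the DDX3X siRNA library. DDX3X itself stood at 107 RPKM with control siRNA, 31.3 RPKM with DDX3X siRNA and 119 RPKM with GFP. The constructs brought it to 2894 RPKM (WT), 3279 RPKM (T275M) and 1906 RPKM (G302V), so that the G302V library held the least DDX3X RNA of the 3 constructs.

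Immediate-early genes are transcribed within minutes of a growth factor, serum or stress signal, without new protein synthesis, because their activators already sit in the cell. Signals that run through the ERK and p38 MAP kinases reach serum response factor with its ternary complex partners at CArG boxes, and CREB and ATF proteins at cAMP response elements. Their mRNAs are short-lived, in many cases through AU-rich elements of the 3′ UTR, so that their levels follow the signal closely, and DUSP1 closes the loop by dephosphorylating MAP kinases.

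The promoter bases before the start sites are shown because they let the response elements be compared between members. Within the 250 bases before the start, the members hold different ones. The sequences come from RefSeq on GRCh38.p14, whose promoter table matched 8 of the 10 genes, and each runs 5′ to 3′ up to the base before the annotated start. The EGR1 stretch is chr5:138465319-138465478 on the plus strand, FOS chr14:75278728-75278827 plus, FOSB chr19:45467896-45467995 plus, JUN chr1:58784048-58784187 minus and DUSP1 chr5:172771196-172771375 minus. Capitals mark CArG boxes, the cAMP response element TGACGTCA, its shorter core TGACG read on either strand, and the TATA sequence TATAAA on the strand of the gene.
EGR1: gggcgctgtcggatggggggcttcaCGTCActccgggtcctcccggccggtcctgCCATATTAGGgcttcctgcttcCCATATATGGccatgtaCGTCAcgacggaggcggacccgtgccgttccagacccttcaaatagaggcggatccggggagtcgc
FOS: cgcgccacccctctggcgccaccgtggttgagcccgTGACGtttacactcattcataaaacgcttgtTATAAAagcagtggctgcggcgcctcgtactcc
FOSB: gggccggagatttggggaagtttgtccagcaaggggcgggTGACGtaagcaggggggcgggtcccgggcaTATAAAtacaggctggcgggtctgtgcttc
JUN: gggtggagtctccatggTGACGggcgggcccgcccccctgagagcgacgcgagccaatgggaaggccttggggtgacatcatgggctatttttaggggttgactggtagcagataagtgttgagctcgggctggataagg
DUSP1: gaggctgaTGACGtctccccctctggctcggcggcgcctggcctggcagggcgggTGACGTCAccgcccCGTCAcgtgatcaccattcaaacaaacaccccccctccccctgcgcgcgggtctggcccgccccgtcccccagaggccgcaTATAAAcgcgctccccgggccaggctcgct

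The EGR1 stretch held 2 CArG boxes, 105 and 83 bases before the start, with the core on either side of the pair. A CArG box was found within 250 bases of 1.16% of the 35116 promoters in the table, and among the matched members in EGR1 and at 1 of the 3 listed EGR2 starts only. The core TGACG was found before all 8 matched genes, for EGR2 again at 1 of its 3 starts, against 21.2% of all promoters. FOS and FOSB had it at nearly the same place, 64 and 60 bases before the start. The full element TGACGTCA, which contains the core in both directions, was found before DUSP1 alone among them and in 1.65% of all promoters, and TATAAA before FOS, FOSB, JUNB and DUSP1 and in 6.80% of all promoters. These matches describe letters and show no binding. Bases more than 250 before the start were not searched, so a member without a match here may hold the element further upstream.

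**Figure D1:**
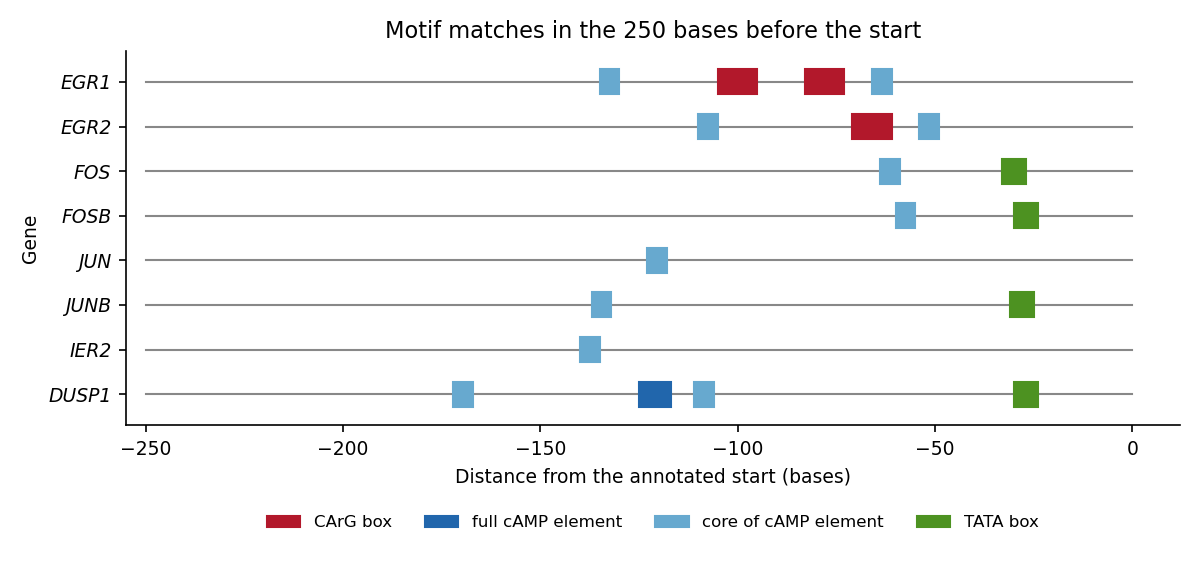
Position of motif matches (coloured boxes) in the 250 bases before the annotated start of the 8 matched genes, with distance from the start in bases on the x axis and 1 of the 3 listed starts drawn for EGR2. CArG boxes appear in EGR1 and EGR2, a full cAMP element in DUSP1, and the core of a cAMP element in all 8 rows, where cores inside the full element are not drawn separately.

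AU-rich elements are shown for the members that hold the nonamer TTATTTATT (capitals), a strong form of the element, in the 3′ UTR. FOS had 1 copy, at chr14:75748763-75748791 on the plus strand of GRCh37, and DUSP1 had 2, at chr5:172195646-172195674 and chr5:172195378-172195406 on the minus strand.
FOS: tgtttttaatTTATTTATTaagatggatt
DUSP1 site 1: gggctggtccTTATTTATTtaacttcacc
DUSP1 site 2: agaatataccTTATTTATTtttgtgtagg

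The nonamer was in the 3′ UTR of 2 of the 10 members, against 9.59% of 10728 expressed genes with an annotated 3′ UTR. The shorter ATTTA was in 9 of 10, all but IER2, against 73.7% of those genes. The members were compact, with 1 to 4 exons in the canonical transcript and a median of 2. The median of all expressed genes was 9 exons and 19.2% had 4 or fewer. The members' gene spans, taken from the whole gene record and not from the canonical transcript, were 1350 to 7204 bases. At or under that size fell 13.0% of expressed genes (median 34063 bases).

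Of the EGR zinc-finger factors, EGR1 (GRCh37 chr5:137801168-137804992, plus strand), which binds GC-rich sites and is a standard readout of ERK activity, had the widest range of the 10 genes. It stood at 58.9 RPKM with GFP, 55.2 with WT, 48.6 with T275M and 23.6 with G302V, and at 0.557 RPKM with control siRNA and 0.451 with DDX3X siRNA. These levels rested on 10137, 10860, 7249 and 3234 reads in the plasmid libraries and on 118 and 256 reads in the siRNA libraries. The arms were far apart, and even the lowest plasmid library, G302V, was 42.3-fold above the highest siRNA library. Whether more cells or more RNA in each cell carried a level cannot be told apart in such bulk libraries. Within the plasmid arm each step down from GFP to WT, T275M and G302V was beyond counting error, whereas the siRNA libraries did not differ beyond it.

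EGR2 and EGR3, relatives of EGR1 that bind the same kind of site, stayed low everywhere. EGR2 (GRCh37 chr10:64571756-64578927, minus strand) was at 0.222, 0.217, 0.248 and 0.229 RPKM with GFP, WT, T275M and G302V, and at 0.0900 and 0.0910 RPKM with control and DDX3X siRNA. The 4 plasmid libraries lay within counting error of each other (28 to 38 reads each) and all lay above the siRNA libraries. EGR3 was at 0.252, 0.342, 0.242 and 0.181 RPKM in the plasmid libraries and at 0.129 and 0.103 RPKM in the siRNA libraries. No neighbours in order of level differed beyond counting error, but some libraries further apart did. In RPKM, G302V was at 0.53 of WT (0.34 to 0.81) and GFP was 1.95-fold above control siRNA (1.25 to 3.10). Neither gene reached 1 RPKM in any library, so neither entered the counts that follow.

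FOS and FOSB are the partners of JUN proteins in the AP-1 factor. FOS (GRCh37 chr14:75745529-75748933, plus strand) was at 23.0 RPKM with GFP, 18.4 with WT, 18.3 with T275M and 9.18 with G302V, and at 1.15 RPKM with control siRNA and 1.73 with DDX3X siRNA. Its lowest plasmid library was 5.31-fold above its highest siRNA library, WT and T275M did not differ beyond counting error, and DDX3X siRNA was above its control. FOSB (GRCh37 chr19:45971253-45978437, plus strand) was at 2.24, 1.18, 0.897 and 0.515 RPKM with GFP, WT, T275M and G302V, and at 0.255 and 0.277 RPKM with control and DDX3X siRNA. FOSB thus had the order of EGR1 in the plasmid arm with each step beyond counting error, and the arms did not overlap.

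JUN and JUNB, the AP-1 subunits that can bind DNA with FOS proteins or with each other, had high and moderate levels in all libraries. JUN (GRCh37 chr1:59242517-59249720, minus strand, the span of the whole gene record) has a single exon in its canonical transcript. It was at 104 RPKM with GFP, 152 with WT, 167 with T275M and 148 with G302V, and at 80.8 RPKM with control siRNA and 105 with DDX3X siRNA. JUN was the only tested member whose arms overlapped, since GFP (103.6 RPKM) lay below DDX3X siRNA (104.8 RPKM), though not beyond counting error. JUNB (GRCh37 chr19:12902300-12904129, plus strand) was at 7.85, 11.0, 9.94 and 9.41 RPKM with GFP, WT, T275M and G302V, and at 4.77 and 4.83 RPKM with control and DDX3X siRNA. In both genes GFP was the lowest plasmid library, the opposite of EGR1, FOS and FOSB.

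IER2, a nuclear protein induced with the FOS and JUN genes, and IER3, a stress-inducible regulator of survival and ERK signalling, moved over a narrower range. IER2 (GRCh37 chr19:13261225-13265725, plus strand) was at 32.1, 37.7, 33.9 and 26.2 RPKM with GFP, WT, T275M and G302V, and at 13.4 and 11.8 RPKM with control and DDX3X siRNA. All its neighbours in order differed beyond counting error, and G302V was the lowest of the plasmid libraries. IER3 (GRCh37 chr6:30710976-30712325, minus strand) was at 6.25, 8.61, 7.97 and 6.72 RPKM in the plasmid libraries and at 5.21 and 5.66 RPKM in the siRNA libraries. Its plasmid libraries all lay above its siRNA libraries, but GFP and DDX3X siRNA lay within counting error of each other.

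DUSP1 (GRCh37 chr5:172195099-172198198, minus strand), the nuclear phosphatase that switches off p38, JNK and ERK, was at 27.9 RPKM with GFP, 37.6 with WT, 43.99 with T275M and 38.2 with G302V, and at 15.8 and 18.8 RPKM with control and DDX3X siRNA. The arms did not overlap, T275M was the highest library, and WT and G302V did not differ beyond counting error.

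**Figure D2:**
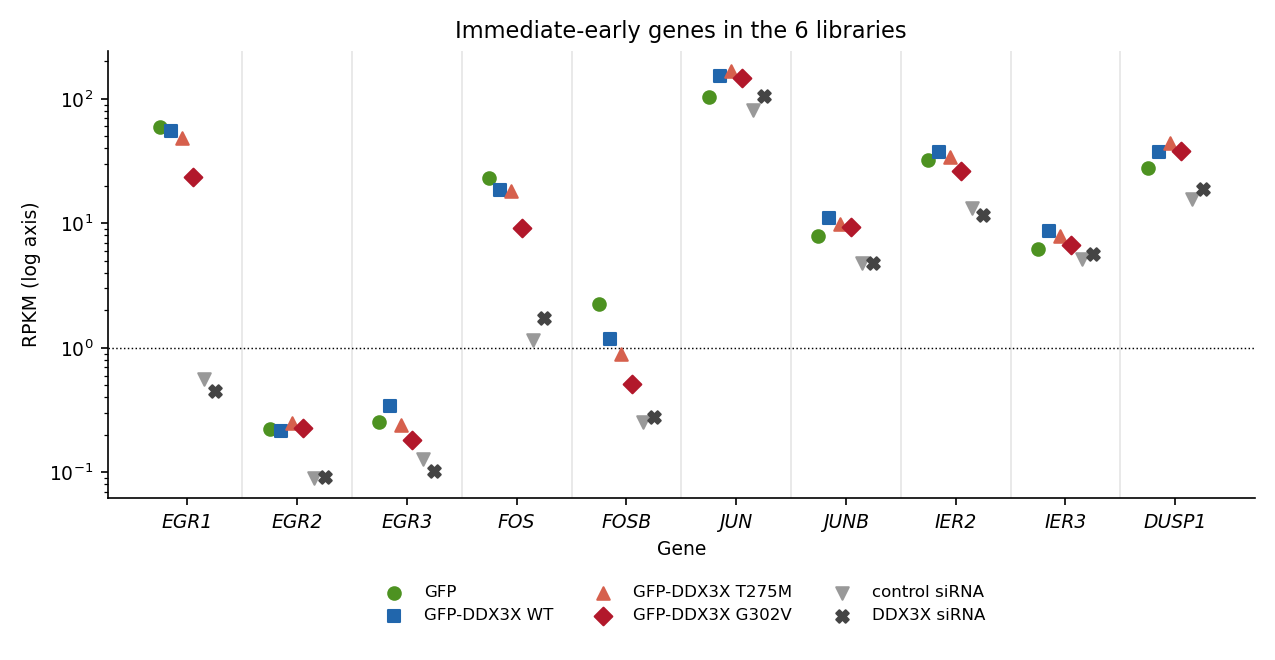
RPKM (log axis) of the 10 genes in each of the 6 libraries, 1 point per library with no replicate, and a dotted line at 1 RPKM. EGR1 falls from 23.6 or more in the plasmid libraries to 0.557 or less in the siRNA libraries, whereas JUN stays between 80.8 and 167.

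The comparison of GFP with control siRNA sets the control libraries of the arms against each other, with no DDX3X plasmid in either. Differences are on the log2(RPKM + 1) scale with 95% counting intervals, and a gene counted as higher or lower at a 2-fold ratio on that scale, if it reached 1 RPKM and 10 reads in a library compared. Higher in GFP were 4 of the 8 tested members, EGR1, FOS, FOSB and IER2, and 0.432% of all 12730 genes tested, where the rule that chose the members had used this contrast. Across all genes 55 were higher and 9 lower, or 22 and 16 with reads per 1000000 (CPM) in place of RPKM. EGR1 differed by 5.27 (5.17 to 5.36), the highest value of all genes tested, which was 106-fold (88.2 to 128) in RPKM. FOS came at rank 2 with 3.48 (3.35 to 3.60), or 19.9-fold (17.0 to 23.4).

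FOSB differed by 1.37 (1.26 to 1.46) between GFP and control siRNA, at rank 28, and IER2 by 1.20 (1.12 to 1.28), at rank 41. EGR1 and FOSB passed the filter through the GFP library alone, so a count over tested members favours genes that are high there. DUSP1 differed by 0.79 (0.71 to 0.86), JUNB by 0.62 (0.48 to 0.75), JUN by 0.36 (0.33 to 0.38) and IER3 by 0.22 (0.06 to 0.39), none of them past the threshold. The median of the 8 members was 0.99 and that of all genes 0.01.

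Over all 6 libraries, 7 of the 8 tested members had the 4 plasmid libraries all above both siRNA libraries, and none had them all below. IER3 is left out of that count where the counting interval of the gap must leave out 0. Of 13137 genes, 22.6% (2968) had the same arrangement and 14.5% (1906) the opposite one, which became 2372 and 2317 after median-ratio scaling of the libraries. Non-overlap is therefore common among all genes. EGR1 and FOSB passed the filter through plasmid libraries alone, so they could not have lain all below. The gap between the lowest plasmid and the highest siRNA library reached 2-fold for EGR1, at 3.98 (3.87 to 4.08), and for FOS, at 1.90 (1.79 to 2.01), and for 0.0304% of all genes, which is 4 genes. IER2 followed with a gap of 0.92, JUNB with 0.60, DUSP1 with 0.55, FOSB with 0.25 and IER3 with 0.12 (-0.02 to 0.26). By the difference of the arm means, EGR1 ranked 1, FOS 3, IER2 13, DUSP1 28, JUNB 57, FOSB 91, JUN 199 and IER3 939 of 13137.

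**Figure D3:**
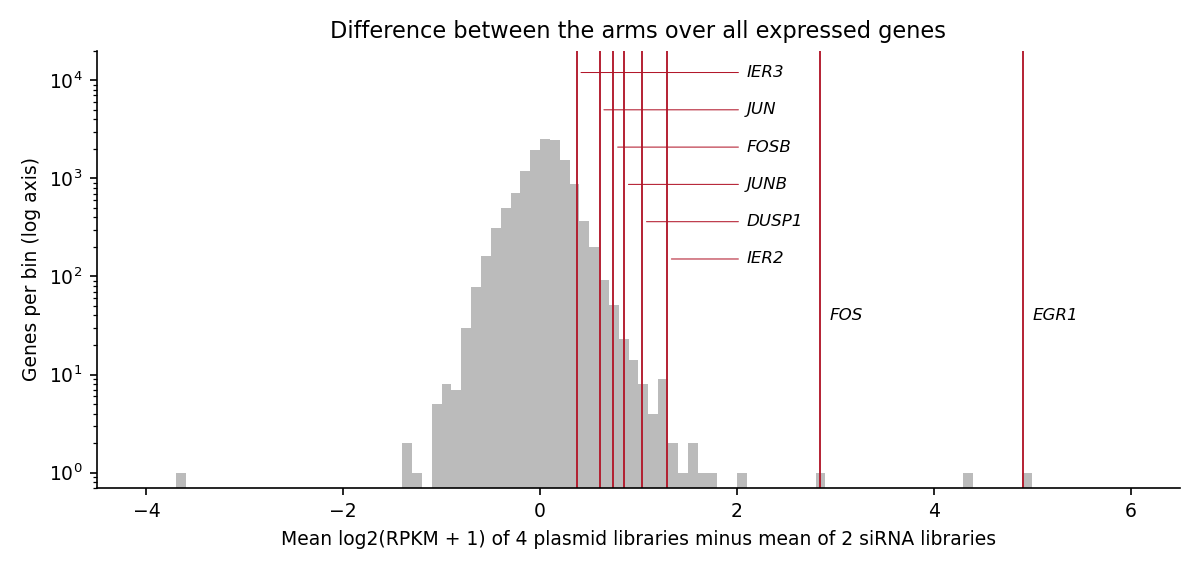
Number of genes (log axis) by the mean log2(RPKM + 1) of the 4 plasmid libraries minus that of the 2 siRNA libraries, for 13137 expressed genes, with the 8 tested members as red lines. EGR1 at 4.90 and FOS at 2.84 lie beyond the bulk of genes, and the other members between 0.37 and 1.29 lie on its right flank.

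With DDX3X siRNA, DDX3X RNA stood at 29.3% of its level with control siRNA, so it was lowered and not lost. DDX3X siRNA against control siRNA moved none of the 6 members tested by 2-fold, and 0.110% of all genes (6 higher and 8 lower, or 8 and 7 after median-ratio scaling). JUN was at 0.37 (0.35 to 0.39), FOS at 0.34 (0.20 to 0.48), DUSP1 at 0.24 (0.17 to 0.30) and IER2 at -0.17 (-0.24 to -0.10), with intervals that leave out 0. JUNB at 0.01 (-0.10 to 0.13) and IER3 at 0.10 (-0.03 to 0.24) had intervals that include 0. Of all genes, 72.9% had an interval that leaves out 0. EGR1, at -0.10 (-0.21 to 0.01), and FOSB, at 0.02 (-0.07 to 0.11), were under 1 RPKM in both siRNA libraries. The members thus had no common direction here.

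The constructs were next set against GFP, libraries that share the sort, the time and the amount of plasmid. All 3 comparisons share the GFP library, so their values are given side by side. With WT, 0 of the 8 members differed by 2-fold, as did 0.248% of all genes (30 higher and 2 lower, or 57 and 0 with CPM). EGR1 was at -0.09 (-0.13 to -0.05), FOS at -0.31 (-0.38 to -0.23) and FOSB at -0.57 (-0.70 to -0.44). JUN was at 0.55 (0.52 to 0.57), JUNB at 0.44 (0.33 to 0.56), DUSP1 at 0.41 (0.35 to 0.48), IER3 at 0.41 (0.25 to 0.56) and IER2 at 0.23 (0.17 to 0.29). The genes thus split, with 3 below and 5 above GFP beyond counting error. Such differences are common, since 62.4% of all genes had an interval that leaves out 0. At 1.5-fold no member was counted either, where 1.97% of all genes were higher and 0.248% lower.

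With T275M the same split was seen, and again 0 of 8 members differed from GFP by 2-fold (0.372% of all genes, 38 higher and 10 lower, or 64 and 1 with CPM, where 1 member was counted). EGR1 was at -0.27 (-0.32 to -0.23), FOS at -0.31 (-0.39 to -0.23) and FOSB at -0.77 (-0.91 to -0.63). JUN was at 0.68 (0.66 to 0.71), DUSP1 at 0.64 (0.57 to 0.70), JUNB and IER3 both at 0.31, and IER2 at 0.08 (0.01 to 0.14). Of all genes, 67.6% had an interval that leaves out 0. At 1.5-fold, JUN and DUSP1 were higher (2 of 8 members, 2.25% of all genes) and FOSB was lower (1 of 8, 0.395% of all genes). FOSB passed the filter through the GFP library alone here, so it could be counted only as lower.

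With G302V, EGR1, FOS and FOSB were lower than with GFP by 2-fold or more, 3 of 8 members, where 0.219% of all genes were (28 of 12775), in a contrast that had been used to choose the group. Across all genes 28 were lower and 11 higher, or 4 and 26 with CPM, under which the count of members was again 3. EGR1 was at -1.29 (-1.34 to -1.23), which put it at rank 5 from the lowest of all genes, and FOS was at -1.24 (-1.34 to -1.13), at rank 8. Both stood at 0.400 of the GFP level in RPKM. FOSB was at -1.10 (-1.23 to -0.96), at rank 17, with 85 reads against 464. It passed the filter through the GFP library alone, so it could be counted only as lower. IER2 was also below GFP, at -0.28 (-0.35 to -0.21), whereas JUN at 0.51 (0.48 to 0.54), DUSP1 at 0.44 (0.37 to 0.51) and JUNB at 0.23 (0.10 to 0.37) were above it and IER3 at 0.09 (-0.09 to 0.27) was not told from it. At 1.5-fold the members counted were the same 3 lower ones, beside 0.767% of all genes, and none higher, beside 1.00% of all genes.

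**Figure D4:**
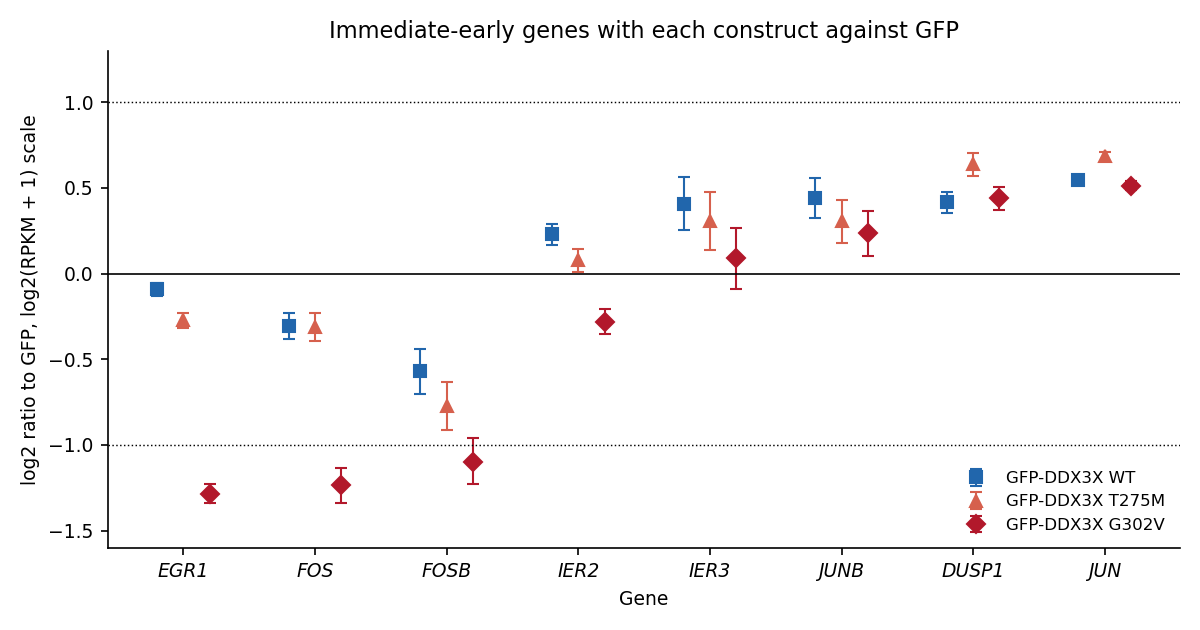
Log2 ratio to GFP on the log2(RPKM + 1) scale for the 8 tested members with each construct, with bars for the 95% counting interval of 1 library against 1 and dotted lines at 2-fold. EGR1, FOS and FOSB lie below 0 with every construct and at or under -1.10 with G302V, whereas JUN, DUSP1, JUNB and IER3 lie above 0.

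The mutants were then compared with WT and with each other, since all 3 plasmids express GFP-DDX3X. T275M differs from WT by a threonine to methionine change, and 0 of 8 members differed between them by 2-fold (0.0771% of all genes, 2 higher and 8 lower, or 0 and 0 with CPM). The widest differences were 0.22 (0.16 to 0.28) for DUSP1 and -0.20 (-0.34 to -0.06) for FOSB, and FOS, at -0.01, had an interval of -0.09 to 0.08. G302V, a glycine to valine change, was below WT for EGR1 at -1.19 (-1.25 to -1.14), the 1 member of 8 past 2-fold, where 0.177% of all genes were lower (23 genes, or 37 with CPM). FOS was at -0.93 (-1.03 to -0.83), FOSB at -0.53 (-0.66 to -0.38), IER2 at -0.51 (-0.58 to -0.44), IER3 at -0.32 (-0.48 to -0.15) and JUNB at -0.21 (-0.33 to -0.09). The intervals of 7 of the 8 members lay below 0, among them JUN at -0.04 (-0.06 to -0.01), whose sign turned under median-ratio scaling, while DUSP1 was at 0.02 (-0.04 to 0.09). In both comparisons with WT, FOSB passed the filter through the WT library alone, so it could not be counted as higher. The median of the members was -0.41 and that of all genes -0.03, and 62.0% of all genes had an interval that leaves out 0.

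G302V against T275M gave 1 of 7 tested members lower by 2-fold, EGR1 at -1.01 (-1.07 to -0.95), where 0.139% of all genes were lower. That call rests on the threshold, since the interval crosses it and EGR1 was at -0.97 after median-ratio scaling. FOS was at -0.92 (-1.03 to -0.82), IER2 at -0.36 (-0.43 to -0.28) and IER3 at -0.22 (-0.39 to -0.04). DUSP1 was at -0.20 (-0.26 to -0.13), JUN at -0.17 (-0.20 to -0.15) and JUNB at -0.07 (-0.20 to 0.06). Thus 6 of the 7 intervals lay below 0, all but that of JUNB, where 51.3% of all genes had one that leaves out 0. The members' median was -0.22 and that of all genes -0.03. FOSB, under 1 RPKM in both libraries and so not tested, was at -0.32 (-0.47 to -0.17). EGR1, FOS, FOSB and IER2 stood lower, beyond counting error, in the G302V library than in each of the other 3 plasmid libraries. This library also held the least DDX3X RNA of the constructs, at 1906 RPKM, and the lowest depth, at about 43720000 reads, and the part of either in these values was not tested.

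Other genes of the response were counted from lists of 26 further immediate-early genes and of their upstream and downstream factors. Of the 24 further immediate-early genes tested, 16 had all plasmid libraries above both siRNA libraries and 0 all below, a count to be read against the 22.6% given above. Their median difference of arm means was 0.47. ARC and ZFP36, both among the 16, passed the filter through plasmid libraries alone, so they could not have lain all below. CYR61, a secreted matrix protein, was at 8.98, 11.6, 9.53 and 8.37 RPKM with GFP, WT, T275M and G302V and at 4.32 and 4.08 RPKM with control and DDX3X siRNA. ARC, a synaptic activity gene, was at 1.57, 1.58, 1.31 and 1.20 RPKM in the plasmid libraries and at 0.468 and 0.626 RPKM in the siRNA libraries. The orphan nuclear receptor NR4A1 showed no such arrangement, at 6.30, 9.03, 9.42 and 9.57 RPKM against 8.05 and 8.36 RPKM.

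In the comparisons of the constructs with GFP, the only 1 of these genes past 2-fold was BTG2, an antiproliferative p53 and growth factor target, with T275M, at 1.09 (1.01 to 1.16). BTG2 was at 14.5, 23.3, 31.8 and 20.8 RPKM with GFP, WT, T275M and G302V and at 13.7 and 17.9 RPKM with control and DDX3X siRNA, so GFP lay between the siRNA libraries. At 1.5-fold, 5 of 24 of the further genes were higher with WT (1.97% of all genes), 7 of 24 with T275M (2.25% of all genes) and 1 of 22 with G302V (1.00% of all genes). None was lower, where 0.248%, 0.395% and 0.767% of all genes were, shares at which 0 of 22 to 24 genes is no result. Their medians against GFP were 0.32, 0.32 and 0.06, beside medians of all genes of 0.05, 0.07 and 0.03, so that with G302V the list lay near all genes. GADD45B, a growth arrest and stress gene, had the lowest ratio of them with G302V, at -0.38 (3.63 RPKM against 5.01 with GFP).

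**Figure D5:**
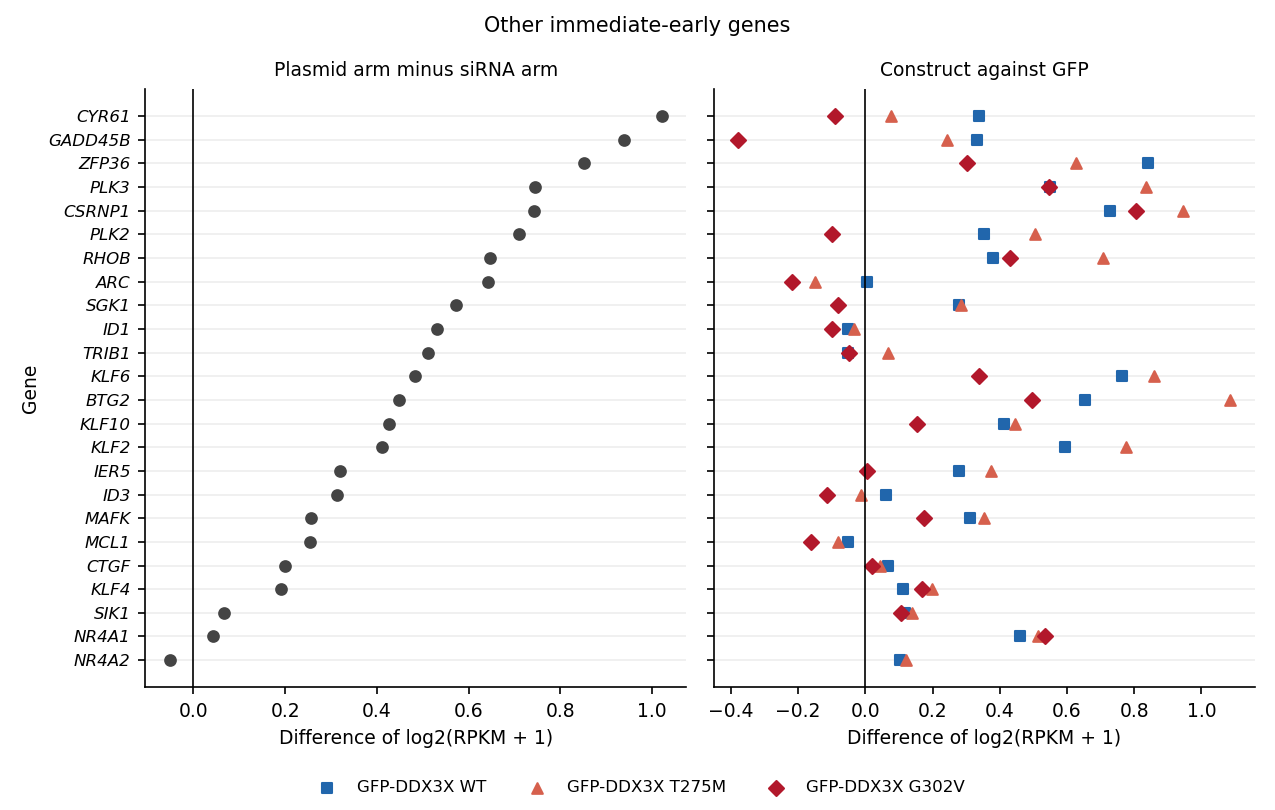
Differences of log2(RPKM + 1) for the 24 further immediate-early genes tested, as the plasmid arm mean minus the siRNA arm mean (left) and as each construct against GFP (right, where KLF2 and NR4A2 have no G302V point because they reached 1 RPKM in neither G302V nor GFP). NR4A2 at -0.05 is the only gene below 0 on the left, and BTG2 with T275M reaches 1.09 on the right.

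Among factors that act with the members, ATF3, a stress-induced AP-1 partner, was at 23.8, 39.6, 46.7 and 38.1 RPKM with GFP, WT, T275M and G302V and at 20.4 and 21.4 RPKM with control and DDX3X siRNA. It followed the pattern of JUN, with ratios to GFP of 0.71 (WT), 0.94 (T275M) and 0.66 (G302V), all under 2-fold. Of 8 tested AP-1 and ATF subunits, 2 had their plasmid libraries all above the siRNA libraries, near the 22.6% of all genes. JDP2, a repressor that pairs with JUN, was lowest with DDX3X siRNA, at 1.05 RPKM against 2.39 with its control. NAB2, a co-repressor that is itself an EGR1 target and restrains EGR1, was at 5.85, 7.13, 9.04 and 8.29 RPKM in the plasmid libraries and at 5.01 and 5.25 RPKM in the siRNA libraries. NAB2 did not share the order of EGR1, since its lowest plasmid library was GFP, and its relative NAB1 ranged only from 9.40 to 11.7 RPKM.

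The counts that follow stand beside the 22.6% of all genes whose plasmid libraries lay all above the siRNA libraries and the 14.5% whose libraries lay all below. Counts at 2-fold stand beside the shares of all genes given above, from 0.0771% (T275M against WT) to 0.432% (higher in GFP than with control siRNA). At such shares, finding none among 24 or 12 genes is no result. Upstream, no gene of 24 in the MAP kinase cascade passed 2-fold in any comparison, and 3 had their plasmid libraries all above and 1 all below the siRNA libraries. Those with the largest ratios, the kinases MAP2K6 and BRAF, ranged over the 6 libraries from 5.21 to 8.32 RPKM and from 4.59 to 6.80 RPKM. Of 12 SRF, TCF and CREB factors, 3 lay all above and 1 all below, also with none past 2-fold. The CREB coactivator CRTC3, at 9.40 to 14.4 RPKM, and the ternary complex factor ELK4, at 3.09 to 5.49 RPKM, had the largest ratios there, both lowest with GFP. Of 13 listed genes of ERK feedback and ERK output, 7 were tested. DUSP6, SPRY4, ETV1, ETV4, ETV5 and PHLDA1 stayed under 1 RPKM in every library and were not tested. Of the 7, 5 lay all above, among them SPRY2, an inhibitor of receptor signalling, at 9.24, 12.8, 14.7 and 11.0 RPKM against 6.001 and 6.97 RPKM. The ERK phosphatase DUSP5 ranged from 1.52 to 2.95 RPKM. Of 12 factors of AU-rich element decay, 6 lay all above and 1 all below. ZFP36, among the 6, passed the filter through plasmid libraries alone. ZFP36, which binds the nonamer shown above and also stands among the 26 further immediate-early genes, was at 1.17, 2.89, 2.35 and 1.68 RPKM in the plasmid libraries and at 0.662 and 0.608 RPKM in the siRNA libraries. Its relative ZFP36L1 ranged from 6.50 RPKM with control siRNA to 13.2 RPKM with WT.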

How the data were processed

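RNA of HEK293T cells was sequenced in 6 libraries, 1 per group, with groups taken from the sample labels. The authors deposited RPKM per RefSeq transcript, with 39618 rows for 23204 symbols. Per the methods and the submitters' processing notes, reads were trimmed with cutadapt, aligned with BWA 0.5.5 to hg19, RefSeq, junction and AceView sequences, duplicates were removed, and counts were divided by length and library total. Removal of duplicates can lower the most abundant transcripts. How reads were shared between isoforms is not given in the sources used here. EGR2, EGR3 and FOSB have several rows, which share reads.

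The product of RPKM and row length was a whole multiple of a fixed step per library in 100% of the 8529 to 9773 low rows checked (tolerance 0.1), which gave reads and depth. At these depths 3 reads correspond to 0.0166 to 0.0686 per 1000000. Ratios are differences of log2(RPKM + 1), which understate changes of low genes. A gene entered with 1 RPKM and 10 reads in at least 1 library compared and was called at 2-fold. Intervals are exact Clopper-Pearson 95% intervals of the share of reads, moved to that scale. They cover counting error only, since the reads carry no molecular identifiers and no library has a replicate. No p-value was computed. The scripts were tested on simulated data. The members and gene lists were chosen with earlier results of these data known. From each related list, genes past 2-fold in any comparison were named or, where there were none, those with the largest ratios. CYR61, ARC, NR4A1 and GADD45B were named after their values were seen.

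Gene models are those of GENCODE 44 on GRCh37, found for 81.8% of expressed genes. Promoter sequences on GRCh38.p14 come from RefSeq, and positions of the builds were not mixed. Alternatives were pseudocounts of 0.1 and 10, no filter, a minimum of 10 RPKM, median-ratio scaling, reads per 1000000 (CPM), summed rows, 1.5-fold and a condition on the interval. Python 3.11.15, numpy 2.4.6, pandas 2.3.3, scipy 1.17.1 and matplotlib 3.10.9 were used.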

Additional observations from a re-analysis of the deposited data

How the results depend on the processing

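Of 80 member counts recomputed, 62 had the same value. A minimum of 10 RPKM gave 3 in place of 4 for GFP against control siRNA, 2 in place of 3 for G302V against GFP and 5 in place of 7 members without overlap of the arms. The last count was 9 with no filter, 8 with summed rows and 6 where the interval must leave out 0. With a pseudocount of 10 the count for GFP against control siRNA went from 4 to 2, for G302V against GFP from 3 to 1, and for G302V against WT and against T275M from 1 to 0. With a pseudocount of 0.1, 1 member (FOSB) passed 2-fold with T275M against GFP and 2 did with G302V against WT. CPM also gave 1 for T275M against GFP. At 1.5-fold the counts were 6 for GFP against control siRNA, 3 for T275M against GFP, and 2 for G302V against WT and against T275M. Median-ratio scaling took the 2-fold count for G302V against T275M from 1 to 0. For all genes, CPM changed the genes higher and lower from 6 and 8 to 2 and 11 for the siRNAs and from 5 and 18 to 0 and 29 for G302V against T275M. The genes past the threshold ranged, from a pseudocount of 10 to a 1.5-fold threshold, from 21 to 296 (64 as reported) for GFP against control siRNA and from 2 to 254 (14) for the siRNAs. Against GFP they ranged from 3 to 286 (32) for WT, from 2 to 341 (48) for T275M and from 3 to 226 (39) for G302V. They ranged from 0 to 45 (10) for T275M against WT, from 1 to 228 (24) for G302V against WT and from 0 to 155 (23) for G302V against T275M. Of 60 member values whose interval leaves out 0, 1 changed sign, JUN with G302V against WT, from -0.04 to 0.0047 with median-ratio scaling, which moved library ratios by -0.05 to 0.06. The pseudocount bears most on genes of low level, such as FOSB. Leaving out a library was not possible, and the spread between cultures is unknown. No paired analysis was possible because each group has 1 library. Differences of EGR2 and EGR3 are limited by their 17 to 84 reads per library.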

Other observations

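The genes whose levels over the 6 libraries were most like the mean profile of the 10 members were sought among 240 expressed genes with a range of 2-fold or more, as Pearson's r of log2(RPKM + 1). The points are 6 libraries in 2 arms, so a high r mostly says that a gene is higher in the plasmid arm, and the members helped to set the profile. CYR61 came first (r = 0.985), followed by LY6G5B (0.981), HOXA5 (0.956), INE1 (0.944), CHKB-CPT1B (0.944), GADD45B (0.943), HES5 (0.939), RENBP (0.935), PIDD (0.933) and MAPK11 (0.930). CYR61 and GADD45B are known immediate-early genes, and HOXA5 and HES5 encode developmental transcription factors.

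For EGR1 alone, LY6G5B came first (r = 0.981), then CYR61 (0.978), HOXA5 (0.950), GADD45B (0.935) and CHKB-CPT1B (0.934). LY6G5B was at 13.2 to 13.4 RPKM in all 4 plasmid libraries and at 6.10 and 6.65 RPKM with control and DDX3X siRNA, so it shared the difference between the arms with EGR1 and not the lower level with G302V. HOXA5 was at 51.1, 62.4, 58.6 and 47.0 RPKM with GFP, WT, T275M and G302V and at 34.9 and 28.7 RPKM in the siRNA libraries. GADD45B was at 5.01, 6.57, 6.12 and 3.63 RPKM in the plasmid libraries and at 2.56 and 1.96 RPKM in the siRNA libraries, so its G302V level was the lowest of the plasmid arm, as that of EGR1 was.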
